A study of Schizosaccharomyces pombe with 12 samples.

Results

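The deposited annotation of the modified fission yeast genome lists 1540 non-coding RNAs named SPNCRNA on chromosomes I, II and III. The 575 described here (37.3%, 95% Wilson interval 35.0 to 39.8) share no base with a protein-coding feature of the opposite strand. The other 965 share at least 1 base and are called antisense RNAs below. The choice used only the deposited intervals and their strands, and 5150 features counted as protein-coding. At the edge of the rule, SPNCRNA.486 was kept with a gap of 1 base to the nearest coding feature of the other strand, and SPNCRNA.1369 and SPNCRNA.1187 were kept with gaps of 3 bases. On the other side of it, SPNCRNA.58 was left out for 1 shared base, SPNCRNA.881 for 2 and SPNCRNA.1598 for 4. With every start moved right by 1 base, 576 features met the rule.

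The study itself profiled 12 ChIP-exo libraries of Schizosaccharomyces pombe, an assay in which an exonuclease trims immunoprecipitated DNA up to the crosslinked protein, in 6 groups with 2 libraries each. Every strain carried the DSB-PpoI system, which places a cutting site for the homing endonuclease I-PpoI in the genome. RNA-DNA hybrids were recovered with the S9.6 antibody from Rnh1del-Rnh201del cells, which lack the main ribonuclease H activities, in 2 libraries each after induction of I-PpoI (ON) and without it (OFF). A Flag tag served to recover Ssb2, part of the RPA complex that coats single-stranded DNA, in 4 groups of 2: WT cells in the OFF state, WT cells in the ON state, Rnh1del-Rnh201del cells in the ON state, and pNmt1::Rnh1 cells in the ON state, in which the thiamine-repressed nmt1 promoter drives Rnh1. How I-PpoI was switched on, and whether a strain was 1 clone, is not given in the labels. Neither signal nor library depth was analysed here. All values below describe intervals and sequence, and no comparison between the groups was made.

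Non-coding RNAs of fission yeast range from housekeeping RNAs (the telomerase RNA, the signal recognition particle RNA, guide RNAs of ribosomal RNA modification) to long transcripts that are often made only in meiosis or stress and are quickly removed in growing cells. The RNA-binding protein Mmi1 marks meiotic transcripts for removal by the nuclear exosome. It binds repeated copies of a short core hexamer, and the meiotic RNA sme2 carries a cluster of them that sequesters Mmi1. Transcripts from the repeats that flank the centromere cores feed RNA interference, which maintains heterochromatin there. RNA-DNA hybrids form where RNA pairs with its template strand, so the strand and ends of an annotated RNA decide what signal is assigned to it.

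Sequences of the members are shown first where they carry a known element or where the results below turn on them. They are read 5′ to 3′ on the RNA strand, in DNA letters, from the RefSeq gene interval in ASM294v3. The telomerase RNA ter1 is shown around its single TGTAACC (capitals), the reverse complement of the telomere repeat unit GGTTACA, in bases 195 to 274 of 1413, at chrI:3085749-3085828 on the minus strand. These 7 letters also occur in other members: 19 of the 507 with a RefSeq interval hold them.
ter1: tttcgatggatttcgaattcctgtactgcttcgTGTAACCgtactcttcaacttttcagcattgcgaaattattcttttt

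The signal recognition particle RNA srp7 is given whole (chrI:4268662-4268916, plus strand), because the deposited interval is longer than this gene by 245 bases.
srp7: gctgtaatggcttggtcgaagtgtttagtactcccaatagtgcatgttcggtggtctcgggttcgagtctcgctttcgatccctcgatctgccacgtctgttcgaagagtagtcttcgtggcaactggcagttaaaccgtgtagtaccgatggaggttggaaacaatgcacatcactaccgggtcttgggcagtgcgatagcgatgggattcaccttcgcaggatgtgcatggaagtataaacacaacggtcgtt

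The small RNAs snR48 (chrII:4239161-4239235, minus strand) and snR191 (chrI:2735048-2735175, minus strand) are given whole because both lie in introns, of rps3, a ribosomal protein gene, and of nog2, a GTPase gene of ribosome assembly.
snR48: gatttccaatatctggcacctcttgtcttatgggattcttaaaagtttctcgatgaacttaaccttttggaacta
snR191: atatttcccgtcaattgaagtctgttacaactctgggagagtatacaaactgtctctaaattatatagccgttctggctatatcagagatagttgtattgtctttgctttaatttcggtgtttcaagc

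For sme2, the last 100 bases (chrII:339346-339445, minus strand) hold 7 of its 9 matches to the Mmi1 core hexamer, searched as TNAAAC and set in capitals. The same hexamer is marked in bases 71 to 140 of nam5 (chrI:3753800-3753869, plus strand) and bases 61 to 130 of nam6 (chrII:1609763-1609832, plus strand), RNAs from repeats at the centromeres of chromosomes I and II. The nam5 and nam6 windows were identical.
sme2: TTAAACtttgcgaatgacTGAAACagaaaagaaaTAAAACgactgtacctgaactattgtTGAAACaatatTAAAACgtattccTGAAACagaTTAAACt
nam5: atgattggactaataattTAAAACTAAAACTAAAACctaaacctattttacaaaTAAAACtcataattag
nam6: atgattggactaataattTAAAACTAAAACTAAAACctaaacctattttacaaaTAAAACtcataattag

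Finally, SPNCRNA.483 and SPNCRNA.484 lie within the centromere of chromosome III and are mirror images. The plus strand of the chromosome is shown for the first 50 bases of SPNCRNA.483 (chrIII:1093231-1093280) and for the stretch of SPNCRNA.484 that aligned to them (chrIII:1105714-1105763), with no capitals. Read backwards on the other strand, the second is the first.
SPNCRNA.483: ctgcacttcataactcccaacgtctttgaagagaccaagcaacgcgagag
SPNCRNA.484: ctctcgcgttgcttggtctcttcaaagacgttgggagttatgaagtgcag

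The members had an uneven split between the strands. Of 575, 403 lay on the plus strand (70.1%, 66.2 to 73.7), against 477 of 965 antisense RNAs (49.4%, 46.3 to 52.6) and 2554 of 5150 coding features (49.6%, 48.2 to 51.0). The excess was of like size on all chromosomes, with 68.7% of 252 members on chromosome I, 72.3% of 213 on II and 69.1% of 110 on III. It lay in 1 range of names. Members numbered from SPNCRNA.130 to below SPNCRNA.520 were on the plus strand in 239 of 249 cases (96.0%, 92.8 to 97.8), while those with lower numbers were in 40 of 69 (58.0%, 46.2 to 68.9) and those from SPNCRNA.520 upwards in 124 of 257 (48.2%, 42.2 to 54.3). The antisense RNAs of the same range were also mostly plus, 42 of 48 (87.5%, 75.3 to 94.1). The bounds of this range were chosen after the strands were seen, and these intervals treat features as independent although neighbours share loci.

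**Figure D1:**
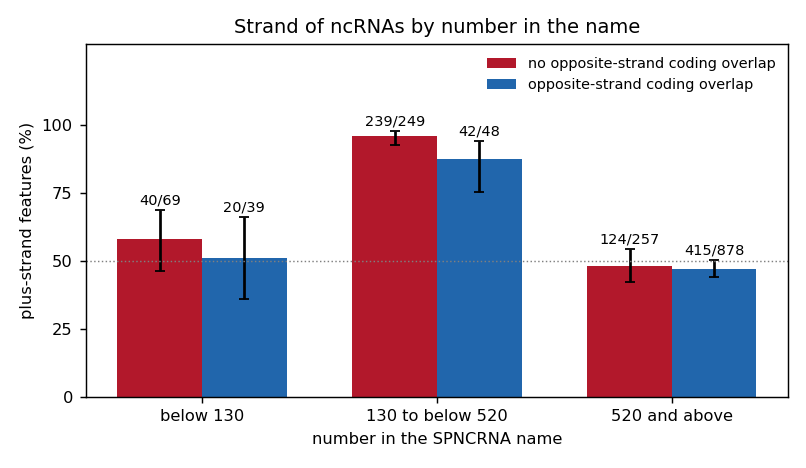
Share of features on the plus strand (vertical axis, %) by the number in the SPNCRNA name, for ncRNAs without (red) and with (blue) an opposite-strand coding overlap; bars carry 95% Wilson intervals, the counts stand above them and the dotted line marks equal strands. Members from 130 to below 520 stand at 96.0% and those from 520 upwards at 48.2%.

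By length, this range lay between the lower and the higher numbers, and by pairing its interval overlapped that of the lower ones. Its median length was 510 bases (468 to 585), against 390 (311 to 431) below 130 and 905 (851 to 980) from 520 upwards. Another SPNCRNA overlapped its members on the opposite strand in 64 of 249 cases (25.7%, 20.7 to 31.5), against 23 of 69 below 130 (33.3%, 23.4 to 45.1) and 119 of 257 from 520 upwards (46.3%, 40.3 to 52.4). With the strands of all SPNCRNAs in that range turned, 564 in place of 575 features met the rule.

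These strands can be set beside RefSeq and beside each other. In RefSeq, 507 of the 575 names were found. In 4 of these the deposited strand differed from the RefSeq strand: SPNCRNA.87, deposited on the minus strand, and SPNCRNA.287, SPNCRNA.291 and SPNCRNA.316, deposited on the plus strand. For these last 3, the RefSeq interval was the one the deposited list gives to SPNCRNA.1300, SPNCRNA.1308 and SPNCRNA.1372 on the minus strand. The remaining 503 had the same strand in both annotations.

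Members that share copied sequence give the other comparison. In a blastn search at 95% identity over 80% of the length, 38 of 507 members (5.51 to 10.1%) had a further copy in the genome. A pair was counted where the copy of 1 member shared at least 1 base with the RefSeq interval of another. There were 17 such pairs. A pair can thus match in part only, and some members are in several pairs. In 13 pairs the copies were inverted, so that an RNA of the same sequence would lie on opposite strands. The deposited strands were the same in 12 of these 13. The exception was the pair of IRC1-L on the minus strand and IRC1-R on the plus strand, RNAs of the inverted repeats that bound the heterochromatin of centromere I, whose sequences were 100% identical over 533 bases. In the other 12 both members were given on the plus strand. Among these were SPNCRNA.483 with SPNCRNA.484 (100% over 157 bases), SPNCRNA.482 with SPNCRNA.485 (100% over 492 bases), and SPNCRNA.360 with SPNCRNA.372 at the centromere of chromosome II. This last pair matched in part only: the copy of SPNCRNA.360 ran over 2695 bases (99.9%), while SPNCRNA.372 has 2494. Over the matched stretch, the RNA as annotated at 1 locus is then the complement of that at the other. All 12 such pairs had both numbers between 130 and 520. That range was chosen for its plus strands, so equal strands in its inverted pairs follow largely from the choice and are no separate check. The 4 pairs in the same orientation were given on the same strand in 3 cases and on opposite strands in the case of SPNCRNA.287 and SPNCRNA.601. That case was counted through the RefSeq interval of SPNCRNA.287. The deposited list gives this interval to SPNCRNA.1300 on the minus strand, which is also the strand of SPNCRNA.601. Why the strands are as deposited was not tested.

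The housekeeping RNAs among the members were mostly annotated end to end. The telomerase RNA ter1 had 1414 bases as deposited (chromosome I, 3084609 to 3086022) and 1413 in RefSeq, and its 3′ end ran 59 bases into the deposited interval of the coding gene SPAC16A10.03c on the same strand. The mrp1 RNA, part of a ribonuclease that processes ribosomal RNA, had 400 bases (1234450 to 1234849) against 399 in RefSeq. The usual difference was this same base: 494 of 507 members (97.4%) started 1 base before the RefSeq gene and ended with it. Sequence is therefore always taken from the RefSeq interval. By the RefSeq class, 465 of the 507 were lncRNA, 35 ncRNA, 6 snoRNA and 1 snRNA.

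A few well-known members departed from this. The deposited srp7 interval had 500 bases (4268565 to 4269064) in place of 255, reaching 97 bases further at its 5′ end and 148 at its 3′ end. The deposited IRC1-L and IRC1-R intervals had 331 and 365 bases, where RefSeq has 533 and 549. SPNCRNA.159, SPNCRNA.985 and SPNCRNA.1674 had RefSeq intervals equal to those deposited under SPNCRNA.681, SPNCRNA.246 and SPNCRNA.113. In all, 10 members (1.97%) had an end over 50 bases from RefSeq.

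The largest loss of sequence was in sme2. The deposited interval covered 668 bases (chromosome II, 339345 to 340012, minus strand) of a RefSeq gene of 1562 (339346 to 340907). The 895 bases at the 5′ end were missing from it. These include all of sme2-S, a RefSeq gene of 509 bases at 340399 to 340907, whose nearer end lay 386 bases beyond the deposited interval. The only deposited SPNCRNA over sme2-S was SPNCRNA.1342 on the plus strand. The hexamer cluster printed above lay in the deposited stretch, which held 8 of the 9 matches.

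Of the 68 names without a RefSeq locus of their own, 10 were listed there as synonyms of other genes. SPNCRNA.46 and SPNCRNA.543 were synonyms of loci that RefSeq classes as protein-coding, prl46 and smp2. Others were names of non-coding genes, SPNCRNA.532 of nam3 and SPNCRNA.38 of prl38 among them. The 68 had a median length of 439.5 bases (259 to 661), against 686 (633 to 744) for the 507 found. Names below SPNCRNA.600 made up 56 of the 68. Without a locus were thus 56 of 334 members below SPNCRNA.600 (16.8%, 13.1 to 21.1), against 12 of 241 from SPNCRNA.600 upwards (4.98%, 2.87 to 8.50).

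The members were short. Their median length was 669 bases (95% order-statistic interval 610 to 727), from 57 bases in SPNCRNA.116 and SPNCRNA.118 to 5124 in SPNCRNA.1164. Antisense RNAs had a median of 1289 bases (1239 to 1331) and coding features 1885 (1850 to 1925). Length and the rule are tied, since a longer interval meets more neighbours: 211 of 279 SPNCRNAs under 500 bases were members (75.6%), but 26 of 259 of at least 2000 bases. The 5 longest members were SPNCRNA.1164, SPNCRNA.866 with 3974 bases, SPNCRNA.1063 with 3450, SPNCRNA.672 with 3404 and SPNCRNA.867 with 3272. SPNCRNA.866 and SPNCRNA.867 overlapped each other on opposite strands over 2955 bases, between mfc1, a copper transporter gene, and agl1, an alpha-glucosidase gene.

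**Figure D2:**
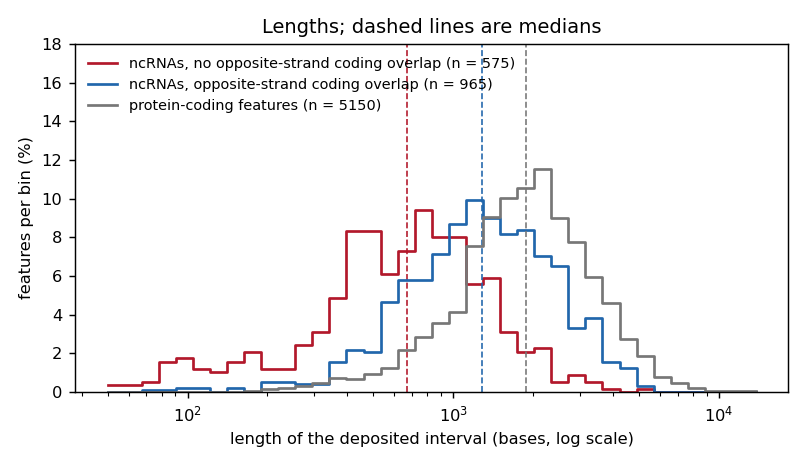
Length of the deposited interval (horizontal axis, bases, log scale) as the share of features per bin (vertical axis, %), for ncRNAs without and with an opposite-strand coding overlap and for protein-coding features; dashed lines are medians. The medians stand at 669, 1289 and 1885 bases.

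A lack of antisense coding overlap did not mean a free stretch of genome. Of the 575, 145 (25.2%, 21.8 to 28.9) shared bases with a coding feature of their own strand, 38 of them lying wholly inside it. The other 430 shared none with any coding feature. In these 430 the gap to the nearest coding feature had a median of 238.5 bases (199 to 303). Among the 145, RefSeq places the shared part in a 5′ untranslated region in 55, a 3′ untranslated region in 21, an intron in 3 and a coding sequence in 2, prl3 and SPNCRNA.540. In 50 the RefSeq intervals shared no base, and 14 had no RefSeq locus. Of the introns, 2 hold snR191 and snR48. For SPNCRNA.1248 only the larger part of the shared stretch was intronic, and the deposited RNA reached beyond the coding feature.

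The size of the same-strand overlap depended on the number in the name. Among 74 such members from SPNCRNA.600 upwards, 43 shared 60 to 68 bases and 66 shared at most 68. In 65 of the 74 it was the 3′ end of the RNA that lay in the coding feature. Among 71 with lower numbers, 0 shared 60 to 68 bases and 44 shared over 200. Antisense RNAs from SPNCRNA.600 upwards had the same narrow range, 74 of 133 with 60 to 68 shared bases. ter1, with 59 bases, and fbp1-ot3, an RNA upstream of the gluconeogenic gene fbp1 with 67, were members with overlaps near this size. What sets this length was not tested.

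On their annotated strands, the 430 free members lay most often beside the 5′ end of a gene that runs the other way. Which end of a member is 5′ follows that strand, and the shares in this paragraph were not recomputed without the range from SPNCRNA.130 to below SPNCRNA.520. Among all members, the share within 500 bases of a divergent coding start was 33.7% in that range. It was 33.3% below the range and 42.8% above it. The nearest coding feature on the 5′ side was divergent for 311 of 430 (72.3%, 67.9 to 76.3), and the nearest on the 3′ side was on the same strand for 306 (71.2%). Together, 220 (51.2%) lay between divergent genes, 86 between tandem genes of their own strand, 91 between tandem genes of the other strand and 30 between convergent genes, while 3 had no coding feature on the 3′ side.

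Divergent gaps between coding features were also larger than others, with a median of 683 bases against 309 for tandem and 160 for convergent gaps, and held 41.0% of all gap bases. They held 51.5% of the 427 members wholly inside gaps, or 228 members per Mb of gap, against 156 in tandem and 119 in convergent gaps. At least 1 member lay in 163 of 1091 divergent gaps (14.9%, 12.9 to 17.2), in 116 of 1981 tandem gaps (5.86%, 4.90 to 6.98) and in 18 of 516 convergent gaps (3.49%, 2.22 to 5.45). Among gaps over 1000 bases these shares were closer, at 37.1%, 31.0% and 31.6%.

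**Figure D3:**
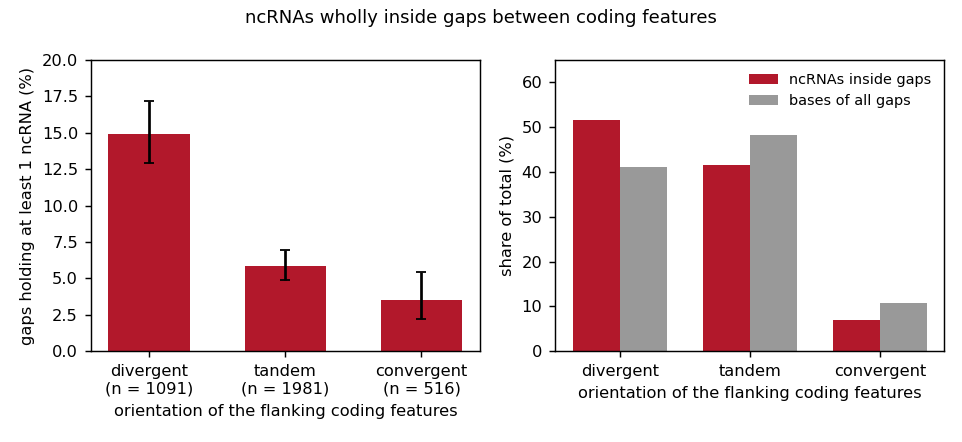
Left, share of gaps between coding features that hold at least 1 member (vertical axis, %), by the orientation of the flanking features, with 95% Wilson intervals; right, share of the 427 members inside gaps (red) and of all gap bases (grey) by orientation. Divergent gaps hold 51.5% of these members and 41.0% of gap bases.

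Within 500 bases of a divergent coding start lay 217 of 575 members (37.7%, 33.9 to 41.8), against 133 of 965 antisense RNAs (13.8%, 11.8 to 16.1); the latter had to reach over a coding feature to be counted as antisense, so the rule takes part in this difference. The closest as deposited were SPNCRNA.1187 and SPNCRNA.1369, both 3 bases from the start of SPCC338.18 and of swd3, SPNCRNA.1431 and SPNCRNA.679, 4 bases from SPBC27B12.12c and puf5, and SPNCRNA.440, 5 bases from cip1, an RNA-binding protein gene. The RefSeq starts stood otherwise. Between them lay 59 bases for SPNCRNA.1187, 77 for SPNCRNA.1431, 118 for SPNCRNA.440 and 747 for SPNCRNA.679, and those of SPNCRNA.1369 and swd3 overlapped by 14 bases. In these cases the start-to-start distance thus depended on the annotation used. The share within 500 bases and the median gap of free members also rest on the deposited coding intervals. Neither was recomputed with RefSeq intervals.

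Many members were paired with each other or with other RNAs. Another SPNCRNA overlapped 206 of 575 on the opposite strand (35.8%, 32.0 to 39.8), against 103 of 965 antisense RNAs (10.7%, 8.88 to 12.8). In the deposited list 241 members (41.9%) overlapped nothing. RefSeq lists more long non-coding RNAs, and against it the picture was different: of 507 members found there, 374 (73.8%, 69.8 to 77.4) overlapped a RefSeq lncRNA on the opposite strand, and 107 (21.1%) overlapped no other gene. A RefSeq coding gene lay opposite 6 of the 507 (1.18%).

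Members also lay near each other and near transfer RNA genes. Of the 575, 273 (47.5%, 43.4 to 51.6) had another member within 1 kb. Most such groups were pairs, 84 in number, and 26 were groups of 3. The largest held 7 members in 3800 bases (chromosome I, 236818 to 240617): SPNCRNA.143, prl3, SPNCRNA.626, SPNCRNA.627, SPNCRNA.144, SPNCRNA.628 and SPNCRNA.145. A group of 6 at 1608213 to 1617497 on chromosome II held SPNCRNA.360 to SPNCRNA.365, nam6 among them, in the centromere repeats. Within 1 kb of a tRNA gene lay 43 members (7.48%, 5.60 to 9.92), against 29 antisense RNAs (3.01%, 2.10 to 4.28). Long terminal repeats of retrotransposons overlapped 19 of 507 members (3.75%) and 17 of 923 antisense RNAs (1.84%).

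The most isolated members were those of the centromeres. SPNCRNA.484, 36848 bases from the nearest coding feature ppc1, was 72 bases from a tRNA gene. Its mirror image SPNCRNA.483 was 28786 bases from chk1 and 75 bases from a tRNA gene. SPNCRNA.482, SPNCRNA.485 and SPNCRNA.367 to SPNCRNA.370 made up the rest of the 8 farthest. The repeats here are many, and reads of nam5, which had 9 further copies, or of nam6, which had 9, cannot be placed uniquely by sequence alone where copies are identical. nam5 and nam6 matched at 98.2% over 1082 bases.

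The members were poor in G and C. The median GC content was 32.7% (32.2 to 33.1) in members, 35.8% (35.5 to 36.1) in antisense RNAs and 36.8% (36.7 to 36.9) in coding genes. Free members had a median of 32.1%, and members with a same-strand coding overlap 34.0%. Antisense RNAs share bases with coding features by the rule, and the part of the rule in these differences was not tested. The highest value was 51.0%, in srp7.

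A larger share of members than of antisense RNAs or coding genes held no Mmi1 core hexamer TNAAAC, and among intervals of at least 500 bases a larger share held it densely. The median density was 1.998 per kb (1.76 to 2.15) on the RNA strand and 2.08 per kb on the opposite strand; antisense RNAs had 1.85 (1.73 to 1.93) and coding genes 1.65 (1.62 to 1.68) on their own strand. Of 507 members, 367 held at least 1 match. The 140 without one made up 27.6% (23.9 to 31.7), against 13.1% (11.1 to 15.4) of antisense RNAs and 9.27% (8.51 to 10.1) of coding genes, which have longer median intervals. Among intervals of at least 500 bases, 26 of 332 members (7.83%, 5.40 to 11.2) had 5 or more per kb, against 23 of 865 antisense RNAs (2.66%, 1.78 to 3.96) and 64 of 4953 coding genes (1.29%, 1.01 to 1.65). On the opposite strand 28 members (8.43%), 26 antisense RNAs (3.01%) and 98 coding genes (1.98%) did so, and the members' share was again the highest of the 3. The part of length and of base composition in these shares was not tested. Among members of at least 500 bases, the densest were SPNCRNA.452 with 9.16 per kb, nam5 with 8.32 and nam6 with 8.27. SPNCRNA.405 with 8.21 and SPNCRNA.279 with 8.09 came next. All are numbered from SPNCRNA.130 to below SPNCRNA.520, the range annotated mostly on the plus strand. Their densities rest on that annotated strand. In the order named, they had 6, 9, 9, 5 and 8 matches on it. The opposite strand held 1, 1, 1, 0 and 3. sme2 had 5.76 per kb. It differed from nam5 in where the matches lay, with 7 of 9 in the last 100 bases against 1 of 9. nam1 had 9 matches in 1489 bases and nam3 had 4 in 1662, with 0 in the last 100 bases of either.

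**Figure D4:**
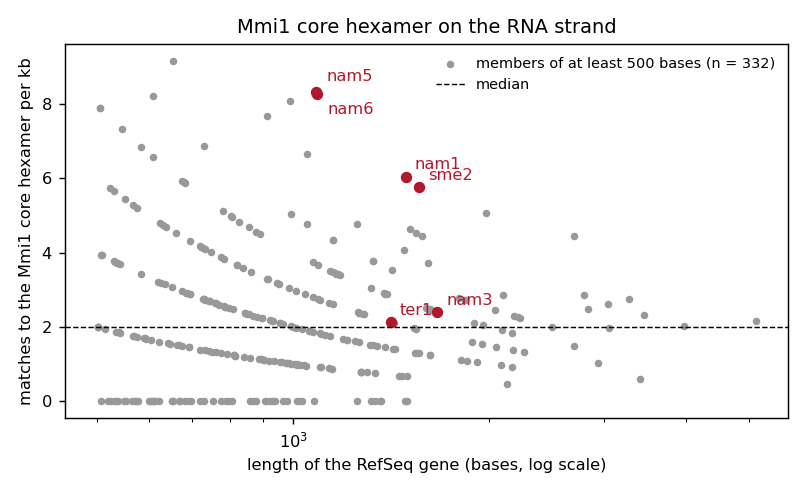
Matches to the Mmi1 core hexamer per kb on the RNA strand (vertical axis) against the length of the RefSeq gene (horizontal axis, bases, log scale) for the 332 members of at least 500 bases (grey), with named RNAs in red and the median dashed. nam5 and nam6 stand at 8.32 and 8.27 per kb and sme2 at 5.76, and the curved rows are equal counts at rising length.

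The cleavage and polyadenylation hexamer AATAAA was in the last 60 bases of 80 of 507 members (15.8%, 12.9 to 19.2) and, on the opposite strand of the same bases, of 73 (14.4%, 11.6 to 17.7). For antisense RNAs the shares were 19.9% and 9.43%, and for coding genes 18.7% and 14.7%. Members from SPNCRNA.130 to below SPNCRNA.520 had it in 26 of 214 on the annotated strand (12.1%) and 30 of 214 on the other (14.0%); those from SPNCRNA.520 upwards in 46 of 240 (19.2%) and 37 of 240 (15.4%). The intervals of both pairs overlap.

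Around the induced break lay few members, too few to compare their density with that of the whole chromosome. The centre of its recognition site, at 1231096 of modified chromosome II, had 1 member within 10 kb on either side and 4 within 50 kb. At the 46.9 members per Mb of chromosome II, these windows would hold 0.938 and 4.69. The nearest, SPNCRNA.342, had 79 bases (1224482 to 1224560, plus strand), 6536 bases to the left, wholly inside tsp0. To the right, the nearer ends of SPNCRNA.1423, SPNCRNA.1424 and SPNCRNA.1425 lay 34859, 35697 and 37342 bases away. All were on the minus strand, so these are their 3′ ends, and they formed 1 group of 3. One member lay beside nmt1, the gene whose promoter the overexpression strain uses: SPNCRNA.504 began 51 bases after the end of nmt1 on the same strand (chromosome III, 1839577 to 1840266).

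The genome also held inexact matches to the recognition site of I-PpoI. With up to 2 mismatches there were 16 matches on both strands, 3 of them in members, while the 3 exact ones were in no member. They are shown because a cut there would fall in a member. Capitals are bases that match the site, positions are counted from 1 at its 5′ end, and the site's base is given first. The match in SPNCRNA.679 (chrI:762969-762983) differed by C5T and G10A, that in SPNCRNA.1442 (chrII:1554195-1554209) by A8G and G10A, and that in meu3, a meiotic RNA (chrIII:42066-42080), by G11T and G14T, all on the plus strand in ASM294v3. Cutting at these places was not measured here.
I-PpoI site: CTCTCTTAAGGTAGC
SPNCRNA.679: CTCTtTTAAaGTAGC
SPNCRNA.1442: CTCTCTTgAaGTAGC
meu3: CTCTCTTAAGtTAtC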

How the data were processed

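No file used here holds a value of any of the 12 samples. The deposited annotation lists each feature with its position, name, strand and a score; the deposited score is 0 in every row and was not used. The deposited insert sequence served to place the break through the open reading frame of its marker. Bowtie2 and build ASM294v2 are named in the submitters' processing notes; for other steps the sources used here say nothing. Printed positions are the deposited start plus 1; sequences and their positions are from RefSeq ASM294v3, matched by locus tag. Overlap means at least 1 shared base. Shares have 95% Wilson intervals and medians 95% order-statistic intervals, which treat features as independent; no test was run. Copies were found with blastn 2.17.0. Counting functions were tested on simulated data. Members and lists were chosen with earlier results of these data known. The text names members with gene symbols, those of extreme length, density or position, and those nearest the break; copies, isolated members, members whose interval or strand differs from RefSeq, and synonyms were named after their values were seen. Python 3.11.15, numpy 2.4.6, pandas 2.3.3, scipy 1.17.1 and matplotlib 3.10.9 were used.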

Additional observations from a re-analysis of the deposited data

How the results depend on the processing

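No paired analysis was possible because no sample values were among the data. For 11 results, 30 alternatives were run: 13 left the count within a factor of 1.5, or the share or median inside its interval, and 17 did not. The 575 members were 326 without SPNCRNA numbers from 130 to below 520, a range chosen after seeing the data; without it the plus-strand share (70.1%) was 50.3%, and in it alone 96.0%. Without that range the same-strand coding share (25.2%) was 29.4%, the share with an opposite ncRNA (35.8%) was 43.6% and the median length (669) 789 bases. The same-strand share was 9.74% at 100 bases and 16.96% with RefSeq intervals. Opposite ncRNAs rose to 75.3% with RefSeq lncRNAs added. Other windows moved values by construction: divergent starts (37.7%) 28.3% at 250 and 49.7% at 1000 bases; another member within 500 bases 42.8%; AATAAA in the last 100 bases 21.7%; the gap to opposite-strand coding features only 459.5 bases; TTAAAC only, a median of 0 per kb. Free members alone had a median length of 608 bases and a GC content of 32.1%. The features are 1 fixed annotation, so intervals do not carry over to other annotations.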
